A study of Homo sapiens with 2 samples.

Results

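Translation initiation and elongation factors are the soluble proteins that bring ribosomes, initiator tRNA and mRNA together and then drive the ribosome along the coding sequence. Their genes were taken by name, as every gene whose symbol begins with EIF or EEF and a digit and that has at least 1 RefSeq mRNA record, leaving out the EIF2AK kinases. This gave 60 of the 26370 gene names in the files, and 57 of the 60 had a mean of at least 1 FPKM over both libraries. FPKM counts fragments scaled to transcript length and library size, so that levels of different genes can be set side by side.

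The RNA was from CHME3 cells, a human line immortalised in culture and labelled as microglia, at passages 4 to 6. The treated culture received muscarinic receptor antagonists (5 µg/ml, given as the EC50) and the other was left untreated, with 1 library of each. Neither the compound nor the length of exposure is named. With 1 library per condition no difference below has a replicate check, and the libraries and the conditions cannot be told apart.

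Estimated depth, worked out from the bounds in the files, was 7295689 fragments for treated and 6702761 for untreated cells. Of 12 microglia markers, 1 was over 1 FPKM, the lysosomal protein CD68, at 12.6 FPKM in treated and 15.7 in untreated cells, and 7, among them AIF1, TMEM119 and CX3CR1, were listed at 0 in both. The 8 fibroblast and matrix markers summed to 5715 FPKM in treated and 5304 in untreated cells, from FN1, VIM, COL1A1 and COL6A2, while COL3A1, LUM and DCN were listed at 0 in both and COL1A2 was under 1 FPKM. The 4 epithelial markers summed to 276 FPKM in treated and 255 in untreated cells, mostly KRT18 with some KRT8, and EPCAM and CDH1 were under 1 FPKM. The 4 neuronal markers summed to 31.2 FPKM in treated and 30.6 in untreated cells and the 4 astrocyte markers to 6.17 and 5.00, nearly all TUBB3 and SLC1A3, with the other 3 of each list under 1 FPKM and AQP4 at 0 in both. Their part in the differences described here was not tested. In a bulk library, fewer cells of a kind and less RNA per cell cannot be told apart.

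In initiation, eIF1, eIF1A and eIF3 hold the small ribosomal subunit open, and eIF2 delivers initiator tRNA with GTP and is recharged by eIF2B. The eIF4 proteins bind and unwind the capped end of the mRNA, and the 4E-binding proteins block that step when they are not phosphorylated by mTORC1. eIF5 and eIF5B then lead to subunit joining, after which eEF1A brings each aminoacyl-tRNA, the eEF1B subunits recharge eEF1A, and eEF2 moves the ribosome by a codon.

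The factors were present at closely similar levels in both libraries. Differences are given as log2((treated FPKM + 1)/(untreated FPKM + 1)), called the log2 ratio, and a gene was counted by size alone, with no test. Over the 57 genes its median was 0.01, with quartiles of -0.06 and 0.06, beside a median of 0.00 and quartiles of -0.10 and 0.11 over the 11668 genes of any kind past the same filter. The ratio was above 0 in 32 of the 57 genes and below 0 in 25, where 50.7% of all genes were higher and 49.3% lower. At least 1.2-fold differences were counted in 4 of the 57 genes, 7.02% of them, against 14.9% of all genes.

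By direction, 1 factor gene was at least 1.2-fold higher in treated cells, where 8.1% of all genes were. The 1 gene was EIF4EBP3, which was also the single gene past 1.5-fold, against 2.23% of all genes past 1.5-fold either way. Lower by at least 1.2-fold were 3 genes, EIF1B, EIF1AY and EIF3CL, against 6.79% of all genes. Past 1.5-fold, 1.2% of all genes were higher and 1.03% lower. Of the 32 factor genes whose mean reached 50 FPKM, 0 were past 1.2-fold, where 1.42% of 1550 genes at that level were higher and 1.87% lower, or 3.29% either way. Past 1.5-fold there, 0.71% of genes were higher and 0.645% lower, or 1.35% either way, and again 0 of the 32. The 32 divided into 16 higher and 16 lower, where 47.2% of genes were higher and 52.8% lower.

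**Figure D1:**
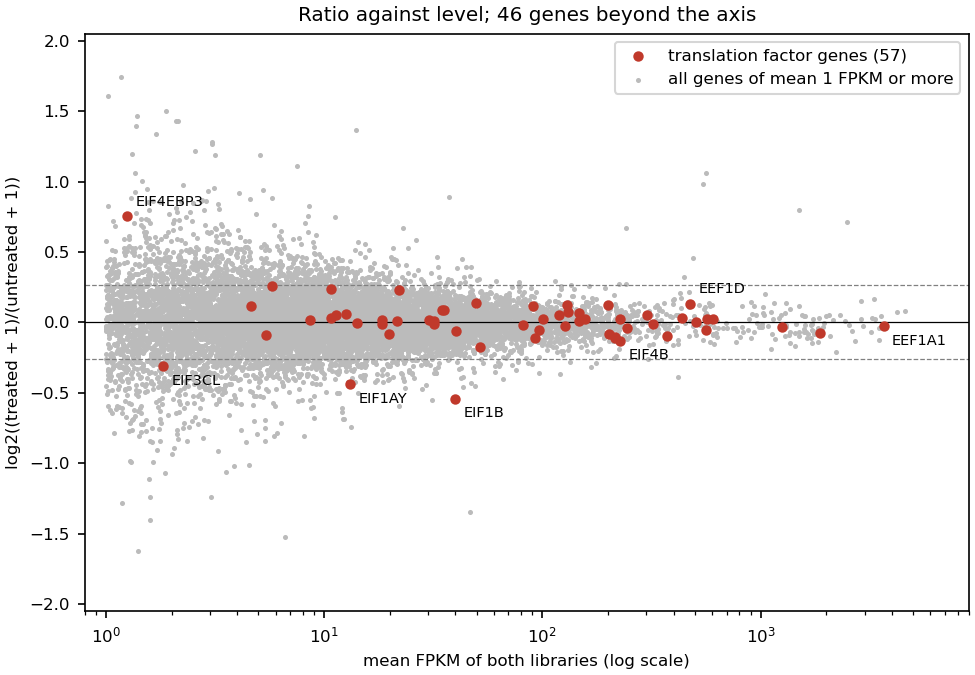
The plot shows, for each gene averaging 1 FPKM or more, the mean FPKM of both libraries (log axis) against log2((treated FPKM + 1)/(untreated FPKM + 1)), with the 57 factor genes in red, all genes in grey and dashed lines at 1.2-fold; 46 genes lie beyond the axis. Most red points lie between the dashed lines, while EIF1B, EIF1AY and EIF3CL lie below and EIF4EBP3 lies above.

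Together the 60 genes made up 2.93% of all FPKM in the treated and 2.97% in the untreated library, and the 5 most abundant of them gave 54.9% and 55.5% of that sum in the same order. At the top stood EEF1A1, the main carrier of aminoacyl-tRNA, which ranked 3 among all gene names in both. At the bottom were 3 genes under 1 FPKM. EIF4E1B, a cap-binding protein of germ cells, had a listed value of 0 in each library, and 3 fragments there would be 0.230 FPKM in the treated and 0.246 in the untreated library. EIF4E3, another cap-binding paralog, was at 0.117 FPKM in treated and 0.249 in untreated cells. EIF5AL1, a copy of EIF5A, was at 0.225 FPKM in treated and 0.189 in untreated cells.

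**Figure D2:**
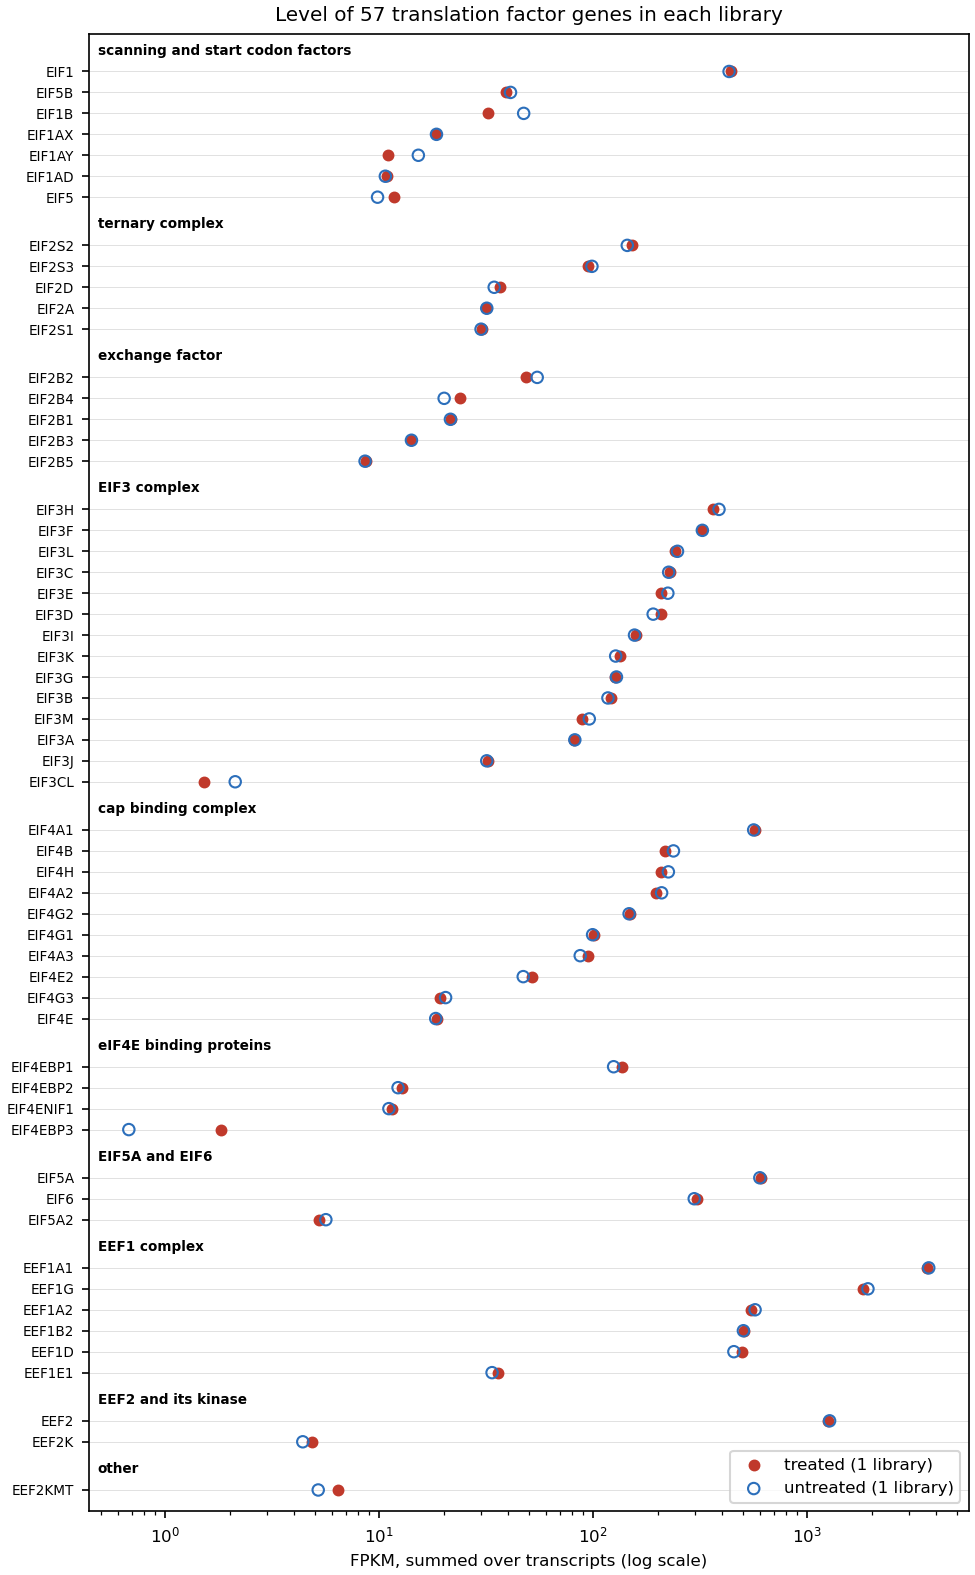
The dot plot gives the FPKM of the 57 factor genes averaging 1 FPKM or more on a log axis, grouped by role and sorted within each group, with a filled red point for the treated and an open blue circle for the untreated library. The pairs overlap for most genes, from EEF1A1 at the top of the range to EIF3CL and EIF4EBP3 at its low end.

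Among the scanning and start codon factors, the widest difference was in EIF1B. EIF1B (chromosome 3, 40309682 to 40312426 on hg38, plus strand) encodes a close paralog of eIF1, the factor that keeps the scanning ribosome from settling on a wrong start codon. It was at 32.2 FPKM in treated and 47.4 FPKM in untreated cells, a log2 ratio of -0.54. The FPKM ratio was 0.680 with a 95% counting interval of 0.557 to 0.832, which covers counting error only and compares these 2 libraries. At least 1.4-fold lower values, a limit set after this value was seen, were found in 0.394% of the 2794 genes averaging 20 to 80 FPKM. The antisense record EIF1B-AS1 overlaps its exons by 17 bases and was at 0.142 FPKM in treated and 0.305 in untreated cells.

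The paralog EIF1 was far more abundant and nearly level, at 442 FPKM in treated and 432 in untreated cells, a ratio of 1.02 (0.977 to 1.07; brackets after a ratio hold its 95% counting interval). EIF1B thus gave 6.79% of the FPKM of the pair in treated and 9.89% in untreated cells. The coding sequences of EIF1B and EIF1 were 82.0% identical, with a longest shared run of 25 bases and 0 shared windows of 50 bases.

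eIF1A, which with eIF1 opens the subunit for scanning, is made from EIF1AX and EIF1AY. EIF1AY was at 11.0 FPKM in treated and 15.3 in untreated cells, a ratio of 0.722 (0.546 to 0.944). EIF1AX was at 18.4 FPKM in treated and 18.5 in untreated cells, a ratio of 0.992 (0.880 to 1.12). The difference therefore lay in the less abundant copy of each pair. The coding sequences of EIF1AY and EIF1AX were 92.1% identical with a longest shared run of 38 bases and 0 shared windows of 50 bases.

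EIF5, which triggers GTP hydrolysis by eIF2 at the start codon, went the other way. Its 2 records summed to 11.8 FPKM in treated and 9.83 in untreated cells, a ratio of 1.198 (1.04 to 1.37) and a log2 ratio of 0.24. EIF5B, the GTPase of subunit joining, was at 39.3 FPKM in treated and 41.1 in untreated cells, and EIF1AD, which carries an eIF1A-like domain, at 10.9 and 10.7 in the same order. Both of these intervals include 1. The most abundant transcript of EIF1AD alone had a log2 ratio of -0.55, against 0.03 for the sum of its 7 records. Exons of EIF1AD overlap those of BANF1 on the opposite strand by 88 bases. BANF1 was at 159 FPKM in treated and 174 in untreated cells, and the strand setting of the reads is not given.

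The eIF2 subunits and related factors showed no difference past 1.2-fold. EIF2S1, the alpha subunit on which stress kinases act, was at 30.3 FPKM in treated and 29.9 in untreated cells. EIF2S2, the beta subunit, was at 151 FPKM in treated and 144 in untreated cells, a ratio of 1.05 (0.992 to 1.11). EIF2S3, the GTP-binding gamma subunit, was at 95.03 FPKM in treated and 98.7 in untreated cells, a ratio of 0.963 (0.908 to 1.02). The mRNA of the beta subunit thus stood 5.00 times above that of the alpha subunit in treated cells and 4.82 times in untreated cells. EIF2A, an alternative initiator tRNA binding protein, was at 31.6 FPKM in treated and 31.8 in untreated cells, and EIF2D, which acts in reinitiation and recycling, at 36.7 and 34.5, a ratio of 1.06 (0.936 to 1.21).

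The 5 subunits of the exchange factor eIF2B differed more from one another than between libraries. EIF2B2 was the most abundant, at 48.5 FPKM in treated and 54.8 in untreated cells, a ratio of 0.886 (0.780 to 1.01). EIF2B4 was at 23.8 FPKM in treated and 20.1 in untreated cells, a log2 ratio of 0.23, or 1.18 (0.989 to 1.43) in FPKM. Both intervals include 1. EIF2B5, the catalytic epsilon subunit, was the lowest at 8.71 FPKM in treated and 8.60 in untreated cells, a ratio of 1.01 (0.814 to 1.27), so that EIF2B2 stood 5.57 times above it in treated and 6.37 times in untreated cells. EIF2B1 had a log2 ratio of 0.01 and EIF2B3 one of -0.01.

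eIF3 is the largest initiation factor and binds the small subunit through many subunits. The 14 genes of this group had a median log2 ratio of -0.01, with 6 higher and 8 lower. Leaving out the loosely bound EIF3J and the copy EIF3CL, the 12 subunits ran from 81.0 to 362 FPKM in treated cells, with a median of 183, and from 82.1 to 387 FPKM in untreated cells, with a median of 173. The highest, EIF3H, stood 4.47 times above the lowest, EIF3A, in treated and 4.72 times in untreated cells. EIF3J was at 32.1 FPKM in treated and 31.8 in untreated cells.

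Within eIF3 the subunits did not all lean one way. EIF3D, which can itself bind the mRNA cap, was at 208 FPKM in treated and 191 in untreated cells, a ratio of 1.09 (1.03 to 1.15). EIF3E was at 208 FPKM in treated and 223 in untreated cells, a ratio of 0.932 (0.876 to 0.992). EIF3H was at 362 FPKM in treated and 387 in untreated cells, a ratio of 0.935 (0.887 to 0.984). EIF3M was at 88.9 FPKM in treated and 95.9 in untreated cells, a ratio of 0.927 (0.848 to 1.01). These differences are all under 1.2-fold, and that of EIF3D points opposite to the others. The remaining subunits EIF3A, EIF3B, EIF3C, EIF3F, EIF3G, EIF3I, EIF3K and EIF3L had intervals that include 1.

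EIF3CL was lower by the 1.2-fold rule, at 1.52 FPKM in treated and 2.13 in untreated cells, with a ratio interval of 0.441 to 1.18. Its coding sequence was 99.9% identical to that of EIF3C, and the files list 6097 bases of exon under both names on chromosome 16. EIF3C was at 230 FPKM in treated and 225 in untreated cells. Records of both names lie at the same places there, on either strand. The value of EIF3CL therefore depends on how the authors' program divided reads between overlapping records, and it does not measure a separate copy. With a pseudocount of 5 its log2 ratio was -0.13, inside 1.2-fold, against -0.31 as counted.

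Of the eIF4 factors that act at the cap, the helicase EIF4A1 was the most abundant, at 572 FPKM in treated and 562 in untreated cells, a ratio of 1.02 (0.984 to 1.05). Its helper EIF4B (chromosome 12, 53006258 to 53042209) was at 217 FPKM in treated and 237 in untreated cells, a ratio of 0.913 (0.881 to 0.946). EIF4H, a smaller helper of the same helicase, was at 208 FPKM in treated and 225 in untreated cells, a ratio of 0.925 (0.882 to 0.969). Both helpers were thus slightly lower in treated cells, with intervals below 1 and differences under 1.2-fold.

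EIF4A2, the paralog of EIF4A1, was at 197 FPKM in treated and 209 in untreated cells, a ratio of 0.943 (0.870 to 1.02), and gave 25.6% of the FPKM of the pair in treated and 27.1% in untreated cells. EIF4A3, a relative that works in the exon junction complex, was at 94.4 FPKM in treated and 87.0 in untreated cells, a ratio of 1.08 (0.992 to 1.19). The scaffold EIF4G1 was at 101 FPKM in treated and 99.4 in untreated cells. EIF4G2, a scaffold that lacks the cap-binding contact, was at 148 FPKM in treated and 147 in untreated cells, and EIF4G3 at 19.3 and 20.4. All 4 of these intervals and that of EIF4A2 include 1.

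The cap-binding protein EIF4E was at 18.6 FPKM in treated and 18.4 in untreated cells, a ratio of 1.01 (0.888 to 1.15). EIF4E2, a cap-binding relative that takes part in repression, was at 52.0 FPKM in treated and 47.1 in untreated cells, a ratio of 1.10 (0.956 to 1.27). EIF4EBP1, the most abundant 4E-binding protein, was at 136 FPKM in treated and 125 in untreated cells, a ratio of 1.09 (0.972 to 1.22). EIF4EBP1 mRNA thus stood 7.29 times above EIF4E mRNA in treated cells and 6.78 times in untreated cells.

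All 4 genes of the eIF4E binding group were higher in treated cells, with a median log2 ratio of 0.09, and the intervals of all 4 include 1. EIF4EBP2 was at 12.8 FPKM in treated and 12.3 in untreated cells, a ratio of 1.05 (0.936 to 1.17). EIF4ENIF1, which carries eIF4E into the nucleus, was at 11.5 FPKM in treated and 11.1 in untreated cells. EIF4EBP3 was at 1.83 FPKM in treated and 0.677 in untreated cells, from bounds that imply 4 and 1 fragments in the same order, with a ratio interval of 0.389 to 194. Its log2 ratio was 0.75 as counted, 0.27 with a pseudocount of 5 and 1.31 with one of 0.1. It shares 516 bases of exon with the read-through record ANKHD1-EIF4EBP3, which was at 7.95 FPKM in treated and 7.34 in untreated cells. The value of EIF4EBP3 thus also depends on how reads were divided between these records.

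EIF5A, the factor that helps ribosomes through difficult peptide bonds, was at 610.1 FPKM in treated and 601 in untreated cells, a ratio of 1.02 (0.976 to 1.06). Its paralog EIF5A2 was at 5.24 FPKM in treated and 5.64 in untreated cells, a ratio of 0.928 (0.759 to 1.13), and gave 0.851% of the FPKM of the pair in treated and 0.930% in untreated cells. EIF6, which keeps the ribosomal subunits apart, was at 307 FPKM in treated and 297 in untreated cells, a ratio of 1.03 (0.972 to 1.10). EIF5AL1 shared 66.3% of its 50-base coding windows with EIF5A, so that its low value may depend on the division of reads. The coding part is 462 of the 3836 bases of its record, and the rest was not compared.

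**Figure D3:**
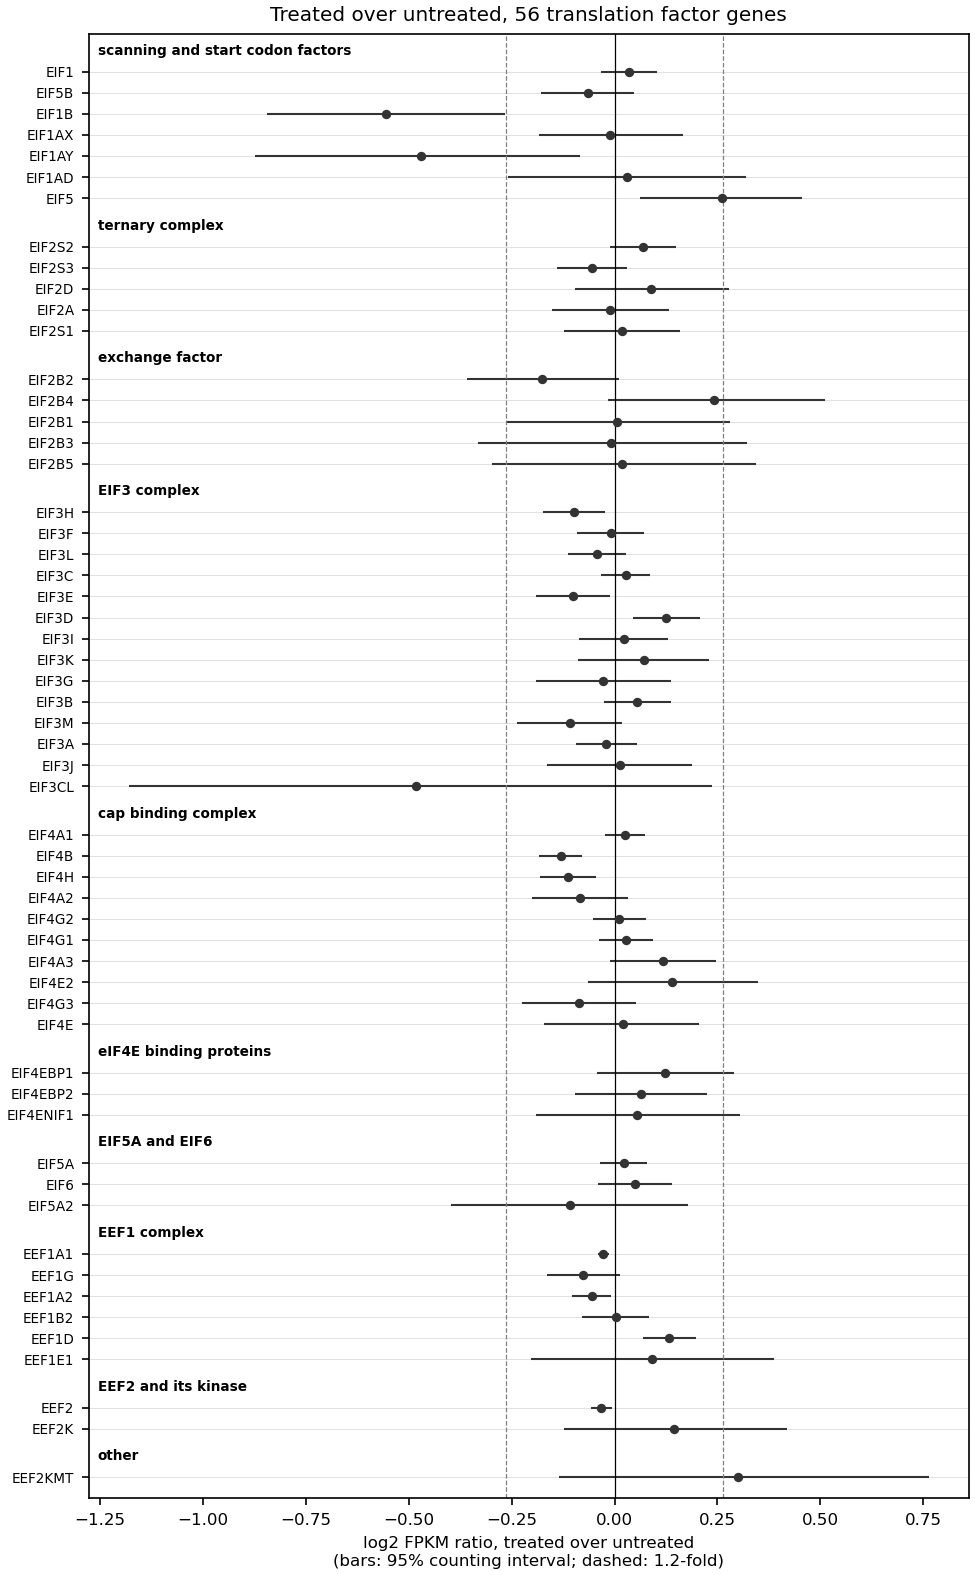
Each point is the log2 FPKM ratio of treated over untreated for 1 factor gene, without a pseudocount, with its 95% counting interval as a bar and dashed lines at 1.2-fold; EIF4EBP3 is left out because its interval runs from 0.389 to 194. The upper end of the EIF1B interval, at a ratio of 0.832, is the lowest in the plot, and EEF1A1 and EEF2 have the narrowest intervals.

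The 3 most abundant genes of the set were the elongation factors EEF1A1, EEF1G and EEF2. EEF1A1 (chromosome 6, 73515750 to 73521032, minus strand) was at 3630.1 FPKM in treated and 3699 in untreated cells, a ratio of 0.981 (0.972 to 0.991). EEF2, the translocase, was at 1245 FPKM in treated and 1273 in untreated cells, a ratio of 0.978 (0.962 to 0.995). EEF1A2, the eEF1A form known from muscle and neurons, was at 549 FPKM in treated and 571 in untreated cells, a ratio of 0.962 (0.931 to 0.995). These 3 intervals exclude 1 although the differences are a few percent, since each rests on at least 6891 fragments per library. They do not allow for the scaling between libraries. By another scaling, the trimmed mean of M values, the libraries differed by -0.0186 on the log2 scale, beside log2 ratios of -0.03 for EEF1A1 and EEF2.

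EEF1A2 was abundant here, ranking 135 of all gene names in treated and 122 in untreated cells, and gave 13.1% of the FPKM of the eEF1A pair in treated and 13.4% in untreated cells. The coding sequences of EEF1A2 and EEF1A1 were 78.1% identical with a longest shared run of 20 bases. They shared 0 windows of 50 bases.

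Of the eEF1B subunits that recharge eEF1A, EEF1G was at 1825 FPKM in treated and 1923 in untreated cells, a ratio of 0.949 (0.892 to 1.01). The bounds deposited for EEF1G were wider than counting would give, as they imply 2072 fragments in untreated cells where level and length give about 17788. EEF1B2 was at 504 FPKM in treated and 503 in untreated cells, a ratio of 1.002 (0.947 to 1.06). EEF1D was at 498 FPKM in treated and 454 in untreated cells, a ratio of 1.10 (1.05 to 1.15). EEF1D was thus the one eEF1 gene whose interval lay above 1. EEF1E1, a scaffold protein of the tRNA synthetase complex, was at 35.9 FPKM in treated and 33.7 in untreated cells, a ratio of 1.07 (0.869 to 1.31).

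The modifiers of eEF2 in the set were scarce. EEF2K, the kinase that switches eEF2 off, was at 4.86 FPKM in treated and 4.40 in untreated cells, a ratio of 1.10 (0.918 to 1.34). EEF2KMT, a lysine methyltransferase of eEF2, was at 6.40 FPKM in treated and 5.19 in untreated cells, a ratio of 1.23 (0.911 to 1.70). With 1 added to each FPKM, as in the counts, the gene was just under the 1.2-fold limit, at 0.26 on the log2 scale. It overlaps 983 bases of exons of ALG1 on the opposite strand, and whether reads kept their strand is not given in the sources used here.

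Counting intervals excluded 1 in 12 of the 57 genes. They lay below 1 in 9 genes, namely EEF1A1, EEF1A2, EEF2, EIF1AY, EIF1B, EIF3E, EIF3H, EIF4B and EIF4H, and above 1 in EEF1D, EIF3D and EIF5. Over all 11668 genes, 5.96% lay below and 6.41% above. Abundant genes have narrow intervals, so the nearer background is that of the 1550 genes averaging 50 FPKM or more, where 12.9% lay below and 10.7% above. There the factor genes gave 7 of 32 below, or 21.9%, and 2 of 32 above, or 6.25%. EIF4B and EIF4H had the lowest ratios of the 7. The upper ends for EEF1A1, EEF1A2, EEF2 and EIF3E lay at 0.991 to 0.995. Those intervals could reach 1 under a slightly different scaling, for which the counts were not repeated.

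Several mRNAs of this set are known to begin with a C followed by pyrimidines, the terminal oligopyrimidine start through which mTORC1 controls their translation. The annotated starts of 49 of the 60 genes were matched in RefSeq promoters of GRCh38.p14. The other 11 had no entry, namely EEF1A2, EEF1D, EEF2KMT, EIF2S2, EIF3A, EIF3CL, EIF3E, EIF3G, EIF3H, EIF3L and EIF4EBP1. These are missing from the comparisons by start below. The starts of 7 genes are shown to let the run be seen beside the ratio. Each line runs 5′ to 3′ from 12 bases before the annotated start to the 18 bases that follow from it, and capitals mark an unbroken run of C and T of at least 5 bases that begins with C at the start base.
EEF1A1: gccgtgaacgttCTTTTTCgcaacgggttt
EEF2: gacgtcagcgttCTCTTCCgccgtcgtcgc
EIF4B: cctcatccgggtCTTTTgcgttctctttcc
EIF3M: cggcccagttccCTTTTCCggtcggcgtgg
EIF4A2: gggcgccgctgtCTTTTCagtcgggcgctg
EIF3D: cgcgcatgtttcCTCTTTTCCTggtttctc
EIF1B: gccattttgtgcgagaagccgcagcgccgc

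On GRCh38.p14 these lie at chr6:73521015-73521044 on the minus strand for EEF1A1, chr19:3985446-3985475 on the minus strand for EEF2 and chr12:53006444-53006473 on the plus strand for EIF4B. EIF3M lies at chr11:32583819-32583848 and EIF4A2 at chr3:186783565-186783594, both on the plus strand. EIF3D lies at chr22:36529149-36529178 on the minus strand and EIF1B at chr3:40309695-40309724 on the plus strand. The first 6 carry the run, and EIF1B does not.

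A run beginning at the start base was found in 12 of 46 factor genes that were over 1 FPKM and had a promoter entry, or 26.1%, against 7.68% of 8827 genes of all kinds and 4.07% of all 35116 promoters. Besides the 6 genes shown, these were EEF1B2, EIF2A, EIF2D, EIF2S3, EIF3F and EIF3K. A gene with several annotated starts counted if any of them had the run. The search read the sequence in the direction and sense of the mRNA alone, and this position was chosen after a wider window had been seen. The 12 genes had a median log2 ratio of -0.02, with 8 lower and 4 higher, and the other 34 a median of 0.02, with 10 lower and 24 higher. Over all genes the medians were -0.01 with the run and 0.00 without it, and among genes averaging 50 FPKM or more 61.1% of 180 with the run were lower, against 49.8% of 1023 without it.

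With a run that may begin anywhere within 10 bases of the start, 27 of the 46 factor genes qualified, and 42.5% of all genes did. Their median log2 ratio was then 0.01, beside 0.02 for the other 19. Under both rules the factor genes with and without a run overlapped. Among the 12 with the run at the start base, EIF4B at -0.13, EIF3M at -0.11 and EIF4A2 at -0.08 were the lowest by log2 ratio, and EIF3D at 0.13, EIF2D at 0.09 and EIF3K at 0.07 the highest. EEF1A1 and EEF2 lay between them at -0.03 each.

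**Figure D4:**
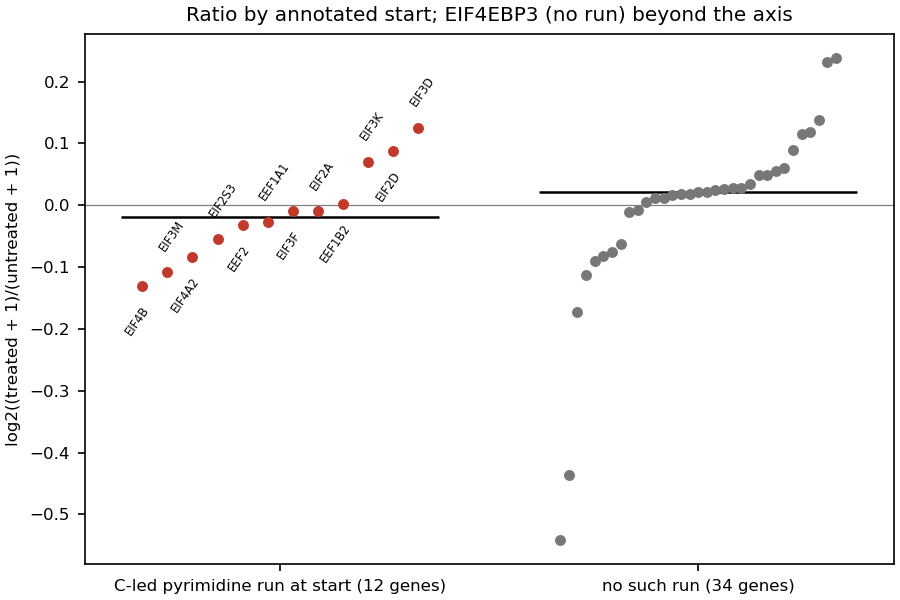
Points are the log2((treated FPKM + 1)/(untreated FPKM + 1)) of single factor genes, split by whether a C-led run of at least 5 pyrimidines begins at the annotated start base, and horizontal lines are medians, at -0.02 for the 12 genes with the run and 0.02 for the 34 without it. The groups overlap, with EIF4B lowest and EIF3D highest among the 12.

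Beneath the gene sums, the listed transcripts of some factors differed more than the genes did. Of 26 factor genes with several transcript records and an average of 10 FPKM or more, 8 had at least 1 transcript whose bounds, as the authors gave them, did not overlap between libraries, or 30.8%, against 38.5% of 3611 such genes in all. The largest share difference of a transcript within its gene had a median of 2.36 percentage points over the 26 genes, beside 4.22 over all. Transcript values rest on how the authors' program divided reads among overlapping records.

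EIF4G1 had the largest share difference among the factor genes averaging 50 FPKM or more, at 8.49 percentage points. Its main record, NM_198241, was at 54.7 FPKM in treated and 54.4 in untreated cells. The record NM_198242 was at 9.82 FPKM in treated and 1.19 in untreated cells, a share of 9.69% of the gene in treated and 1.197% in untreated cells. NM_004953, which starts farther downstream, was at 3.32 FPKM in treated and 6.65 in untreated cells. The gene sums were nearly level, as given above.

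In EEF1D the main record NM_001960 was level, at 286 FPKM in treated and 287 in untreated cells. The higher sum came from 3 other records whose bounds did not overlap. NM_001289950 was at 77.1 FPKM in treated and 57.3 in untreated cells, NM_001195203 at 33.99 and 22.4, and NM_001130057 at 18.2 and 8.26, each with the treated value first. The 8 records of EEF1D on an alternative chromosome 8 sequence were listed at 0.

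EIF3B divided its signal about evenly between its records. NM_003751 was at 62.7 FPKM in treated and 52.7 in untreated cells, and NM_001037283 at 59.0 and 64.5. The first gave 51.5% of the gene in treated and 45.0% in untreated cells, while the gene stood at 122 FPKM in treated and 117 in untreated cells. The listed order of both records differed between libraries. In treated cells their bounds overlapped, at 57.7 to 67.8 and 54.3 to 63.8 FPKM, so their order there is not resolved. In EIF4G3 the record NM_001198802 was at 4.42 FPKM in treated and 7.08 in untreated cells, with bounds apart.

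**Figure D5:**
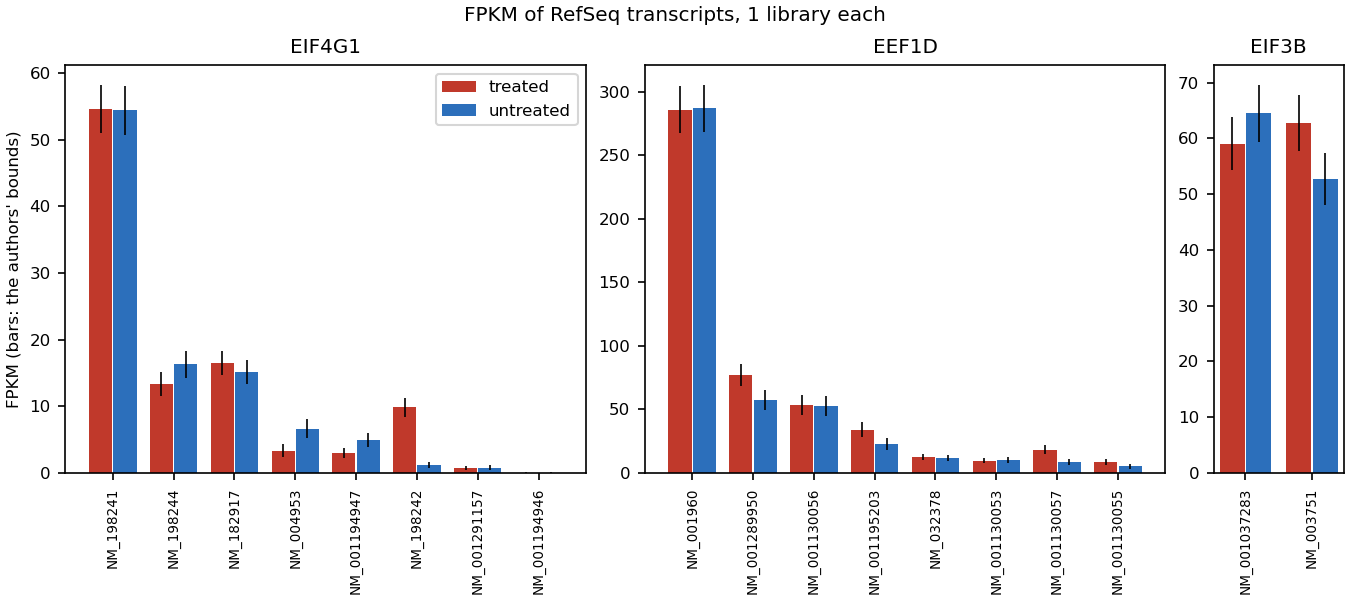
Bars give the FPKM of each RefSeq record of EIF4G1, EEF1D and EIF3B on the main chromosomes, red for the treated and blue for the untreated library, with the authors' deposited bounds as error bars. The main records of EIF4G1 and EEF1D are level, while NM_198242 of EIF4G1 is at 9.82 FPKM in treated and 1.19 in untreated cells.

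Other genes of translation were described from fixed lists of genes outside the name rule, and few were past 1.2-fold. In termination and recycling, all 5 genes over 1 FPKM were lower in treated cells, with a median log2 ratio of -0.11 and 0 past 1.2-fold. Over all genes 49.3% were lower, which is the background for each of these lists. PELO, which rescues stalled ribosomes, was at 14.8 FPKM in treated and 16.3 in untreated cells. GSPT1, the GTPase release factor, was at 22.3 FPKM in treated and 24.4 in untreated cells, a ratio of 0.915 (0.842 to 0.994), and ETF1, which reads stop codons, was at 38.0 and 41.2.

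Of 15 other initiation and mRNA binding proteins, 10 were lower and 5 higher, with a median of -0.04 and 0 past 1.2-fold. The poly(A)-binding protein PABPC1 had the largest difference, at 556 FPKM in treated and 613 in untreated cells, a ratio of 0.906 (0.851 to 0.966). The helicase DDX3X was at 51.5 FPKM in treated and 55.7 in untreated cells, a ratio of 0.924 (0.863 to 0.990).

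Among 12 genes of mTORC1 and MNK signalling, the median was -0.02, with 1 gene past 1.2-fold each way. TSC1, a brake on mTORC1, was at 4.46 FPKM in treated and 3.40 in untreated cells, a ratio of 1.31 (1.09 to 1.58). MKNK1, a kinase of eIF4E, was at 4.16 FPKM in treated and 5.19 in untreated cells, a ratio of 0.801 (0.578 to 1.10). MTOR itself was at 11.1 FPKM in treated and 9.96 in untreated cells, with an interval that includes 1.

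For the eIF2alpha kinases and the phosphatase subunits that oppose them, 0 of 6 genes were past 1.2-fold. The median was -0.10, with 2 genes higher and 4 lower. The kinase EIF2AK4 was higher, at 21.7 FPKM in treated and 19.6 in untreated cells, a ratio of 1.11 (1.0005 to 1.23). EIF2AK3, the kinase of endoplasmic reticulum stress, was at 4.501 FPKM in treated and 5.32 in untreated cells, with an interval that includes 1. PPP1R15B, the constitutive phosphatase subunit, was at 15.95 FPKM in treated and 18.3 in untreated cells, a ratio of 0.870 (0.777 to 0.977). PPP1R15A, the stress-induced one, was at 40.2 FPKM in treated and 45.5 in untreated cells, a ratio of 0.883 (0.791 to 0.985). The substrate gene EIF2S1 was level, as given above.

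The enzymes that modify eIF5A and eEF2 held the widest differences of these lists. By at least 1.2-fold, 3 of 9 genes were higher and 1 lower, where 8.1% of all genes were higher and 6.79% lower. DPH7 and DPH6, of the diphthamide pathway that modifies eEF2, were at 10.7 and 4.82 FPKM in treated cells, against 7.33 and 3.14 FPKM in untreated cells. Their ratios were 1.47 (1.10 to 1.96) for DPH7 and 1.53 (1.02 to 2.34) for DPH6. DPH1 was at 15.8 FPKM in treated and 12.9 in untreated cells, and DPH5 was lower, at 6.38 and 7.90, both with intervals that include 1.

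Of 9 mitochondrial translation factors 1 was past 1.2-fold, the recycling factor MRRF, at 12.1 FPKM in treated and 9.07 in untreated cells, a ratio of 1.33 (1.04 to 1.71). The median of that list was -0.08. EEFSEC, the elongation factor for selenocysteine, was at 8.08 FPKM in treated and 5.53 in untreated cells, a ratio of 1.46 (1.09 to 1.98), while SECISBP2 and SEPSECS of the same list of 3 were under 1.2-fold. At least 1.2-fold differences either way were thus counted in 8 of the 59 genes of these 7 lists over 1 FPKM, or 13.6%, beside the 14.9% of all genes.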

How the data were processed

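Libraries were made from total RNA of CHME3 cells with TruSeq kits, per the labels' protocols. The sequencing instrument, read length and strand setting are not given in the sources used here. TopHat, Cuffdiff and the build hg38 are named in the submitters' processing notes, with no version. Each line of both deposited files names Cufflinks and a RefSeq transcript, and the values used are FPKM with lower and upper bounds. The files also hold a score per transcript, which the authors deposited and which played no part here. The 2 files hold an identical set of 56891 transcript records.

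FPKM was summed over the records of a gene. Genes entered at a mean of at least 1 FPKM. Fragments behind a value were taken from the deposited bounds for genes with 1 record, as the square of 2 × FPKM over the distance to the upper bound, and otherwise from FPKM, length and depth. Of single-record values of at least 3 fragments, 21.3% were whole within 0.01 fragments in the treated and 21.1% in the untreated library, so these are estimates. Intervals are 95% exact conditional binomial intervals that allow for counting error alone. They do not allow for how reads were divided between records or for the scaling between libraries.

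Members and lists were chosen with earlier results of these data known. The genes named are the members, with ratios for those past 1.2-fold or with the highest level or widest ratios of their role, and up to 4 genes of each list. Ratios and intervals of other members are given where their counting interval excludes 1, and for EIF1AX, EIF4A2, EIF4E and EEF1B2, a choice made after the values were seen. No p-value was computed, as there is 1 library per group. Close copies were compared by coding sequence, from GENCODE transcripts, using Biopython 1.88, and start regions were read from RefSeq promoters. Python 3.11.15, pandas 2.3.3 and scipy 1.17.1 were used. Alternatives changed the pseudocount, the filter, the scaling, the transcripts summed and the measure.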

Additional observations from a re-analysis of the deposited data

How the results depend on the processing

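No paired analysis was possible because each condition has 1 library, and no library could be left out for the same reason. The counts of factor genes past a fold are small, so single genes move them. The number at least 1.2-fold higher, 1 as reported, was 2 with a pseudocount of 0.1, with ratios divided by the trimmed mean of M values, or with the most abundant transcript, 3 with estimated fragments in place of FPKM, and 0 at a mean of at least 5 FPKM. The number at least 1.2-fold lower, 3 as reported, was 2 with a pseudocount of 5 and at a mean of at least 5 FPKM, and 4 with the most abundant transcript. The number past 1.5-fold, 1 as reported, was 0 with a pseudocount of 5, at a mean of at least 5 FPKM, and with estimated fragments. The median log2 ratio of the 57 genes was 0.0308 with the trimmed mean, against 0.01 as reported, and that of all genes was then 0.02, against 0.00. Of 135 alternative values, 126 were counts within 1.5-fold of the reported count or medians inside the reported median's 95% interval (the range of the genes, for groups too small for one). Of 509 values of single genes, 505 moved by no more than the half-width of the gene's counting interval, a wide margin for low genes: EIF4EBP3 ran from 0.27 to 1.31 and EIF3CL from -0.46 to -0.13. The most abundant transcript alone gave -0.55 for EIF1AD, -0.13 for EIF3B and -0.0048 for EEF1D in place of the gene's 0.03, 0.05 and 0.13, and the trimmed mean gave -0.01 for EEF1A1. EIF1B ranged from -0.57 to -0.49 over its 9 alternatives. With fragments estimated for every gene, added after seeing the data, intervals lay below 1 in 11 genes, EEF1G and EIF4A2 being the added ones, and above 1 in 3. Intervals were not recomputed under other scalings. Depth limits the lowest genes. The bounds of EIF4EBP3 imply 4 fragments in treated and 1 in untreated cells, where level and length give 7 and 2.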
